A study of Mus musculus with 12 samples.

Results

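The genes described here are 8 markers of the ovarian surface epithelium and of its relative, the mesothelium that lines the body cavity. They are the keratin genes Krt7, Krt8, Krt18 and Krt19, the surface protein genes Upk3b and Msln, the transcription factor gene Lhx9 and the adhesion gene Cdh1. They were chosen by Ensembl identifier, and an identifier was kept only where its chromosome in the count files was the one fixed for it; all 8 were kept, of 55416 annotated genes. In the table of RNA immunoprecipitation (RIP) ratios, 6 of the 8 had rows, 14 of 14447 rows in all, and Msln and Cdh1 had none.

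RNA came from whole ovaries of mouse embryos on embryonic day E16.5, with 5 pairs of ovaries per sample. The Fmr1 knockout (KO) groups were 3 input libraries and 3 libraries of RNA pulled down with an anti-FMRP antibody (RIP); FMRP, the product of Fmr1, binds RNA and regulates translation. The wild-type (WT) groups were 3 input libraries, called littermates in the study's design text, and 3 anti-FMRP libraries. All samples carry the strain label B6.129P2-Fmr1tm1Cgr/J, the WT samples included, so the label does not separate the genotypes. The Fmr1 mutation is constitutive, so every cell type of the KO ovary carries it; whether KO embryos were homozygous is not stated in the labels. The labels call the samples biological replicates, and the spread behind each p-value is that between pools of ovaries.

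The surface epithelium is a single layer of cells that covers the ovary and derives from the coelomic epithelium, from which much of the gonadal soma also arises. Simple epithelia of this kind hold keratin filaments, which are built from pairs of a type II keratin (Krt7, Krt8) and a type I keratin (Krt18, Krt19). In whole-ovary RNA these cells are mixed with germ cells, pregranulosa cells, stroma and vessels, and none of the 8 genes is confined to the surface: Lhx9 is active in other gonadal somatic cells and E-cadherin, the Cdh1 product, is made by fetal germ cells too. Fewer cells of a type and less RNA per cell cannot be told apart in such samples.

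Krt7, Krt8 and Krt18 lie on chromosome 15, and the windows from 250 bases before to 50 bases after their transcription starts are shown because Krt8 and Krt18 encode partner keratins from neighbouring genes and differed several-fold in level. The sequences are RefSeq's, build GRCm38.p6, each 5′ to 3′ on its gene's strand, at chr15:101412153-101412452 (Krt7), chr15:102004293-102004592 (Krt8) and chr15:102027966-102028265 (Krt18). Capitals mark, on either strand, the TATA box letters (TATAAA), the GC box letters (GGGCGG) and an E-box (CACCTG).
Krt7: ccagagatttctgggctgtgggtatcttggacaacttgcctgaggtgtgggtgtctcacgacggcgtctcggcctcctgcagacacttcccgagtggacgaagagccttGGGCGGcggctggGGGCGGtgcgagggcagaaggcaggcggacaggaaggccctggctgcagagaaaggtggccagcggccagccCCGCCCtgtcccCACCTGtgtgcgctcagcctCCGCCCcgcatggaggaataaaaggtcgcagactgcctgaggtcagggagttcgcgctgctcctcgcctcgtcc
Krt8: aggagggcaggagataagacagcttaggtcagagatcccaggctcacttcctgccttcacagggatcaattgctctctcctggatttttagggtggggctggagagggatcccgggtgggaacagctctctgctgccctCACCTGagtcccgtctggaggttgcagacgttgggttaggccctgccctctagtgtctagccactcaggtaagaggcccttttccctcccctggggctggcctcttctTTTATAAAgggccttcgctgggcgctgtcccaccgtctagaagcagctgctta
Krt18: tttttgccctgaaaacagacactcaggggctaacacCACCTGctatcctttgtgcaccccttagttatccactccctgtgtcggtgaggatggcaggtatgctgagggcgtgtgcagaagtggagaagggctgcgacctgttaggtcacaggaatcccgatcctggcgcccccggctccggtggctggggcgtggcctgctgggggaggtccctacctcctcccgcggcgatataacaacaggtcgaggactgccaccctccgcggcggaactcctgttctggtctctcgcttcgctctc
Krt8 had TATAAA, and no match to it was found in the Krt7 and Krt18 windows; 13.6% of the 32851 promoter windows in the RefSeq table hold this motif. Krt7 had GGGCGG 4 times, a motif in 35.7% of windows, and all 3 had CACCTG once, a motif in 20.2% of windows. In Krt8 the match to TATAAA on the opposite strand overlaps the one on the gene's strand. The latter begins 1 base before the annotated transcription start and so runs across it. Whether any of these matches acts in the promoter was not tested. Windows for Upk3b and Lhx9 were also in the table, so that 5 of the 8 genes were matched.

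Input libraries held 18880238 to 25707718 counted reads, and the 8 genes had 214 to 4413 reads each per library. Levels are given as CPM, read counts scaled to library size with edgeR's TMM factors. The targeted gene was checked first: Fmr1 had 85.6, 123 and 93.4 CPM in the KO input libraries, against 204, 213 and 221 CPM in WT, and fell in KO (log2 change -1.08, SE 0.11, adjusted p = 0.00775 by the quasi-likelihood test of edgeR, Benjamini-Hochberg over 23698 genes).

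None of the 8 surface epithelium genes passed the test for a change in the KO ovary, and 0.0422% of all tested genes did (10 of 23698, all lower in KO). Estimates were above 0 for 7 of the 8 genes and below 0 for Cdh1. The median log2 change of the 8 was 0.042, beside -0.0020 for all tested genes. The median size of the change, whatever its sign, was 0.056, beside 0.12 for all tested genes. This comparison was not matched for level: by WT level per kb the 8 genes stood above 58.0% (Cdh1) to 96.3% (Upk3b) of tested genes. Summed over the 8 genes, the level was 408 ± 8.03 CPM in KO and 402 ± 10.4 CPM in WT (n = 3 each, SD).

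**Figure D1:**
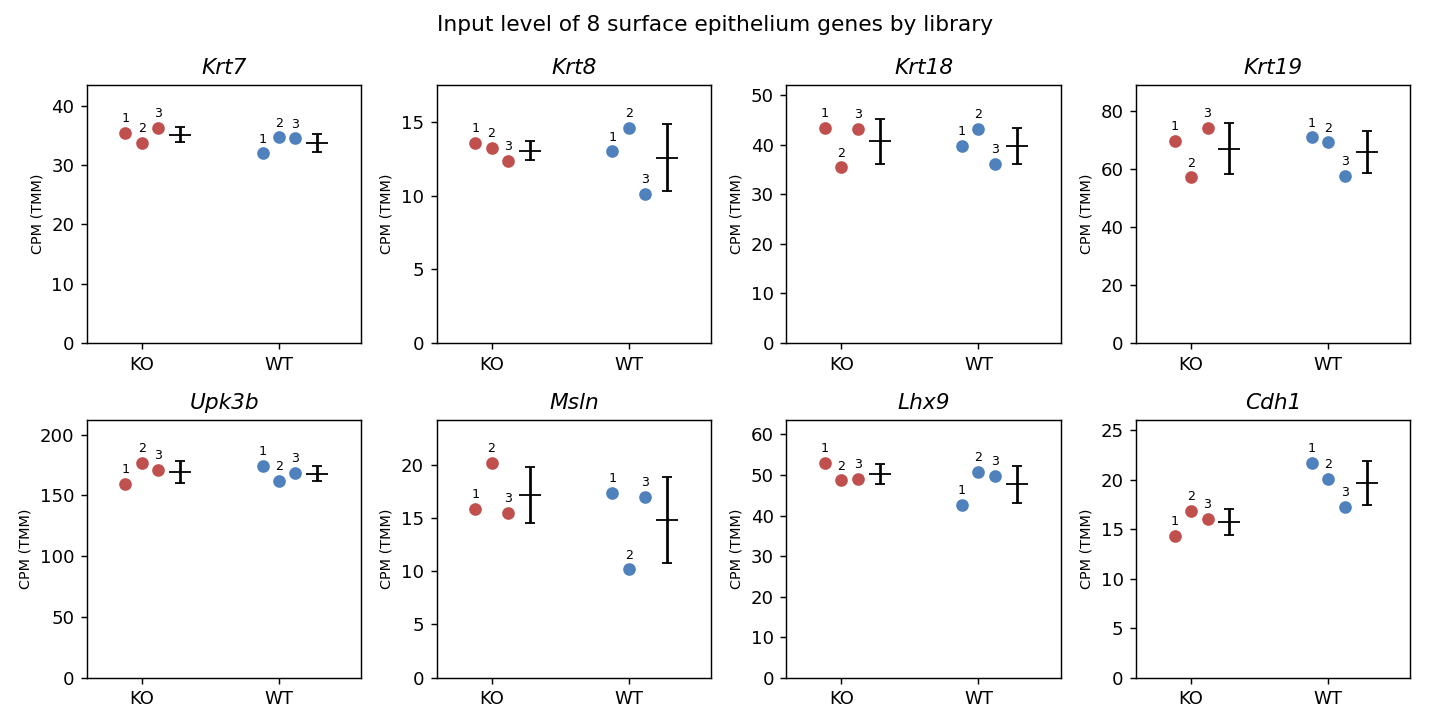
Input level (CPM with TMM factors, axes from 0) of each of the 8 genes in the KO libraries (left) and WT libraries (right), with replicate numbers beside the points and the mean and SD in black. The groups overlap in all panels but Cdh1, whose highest KO library, at 16.8 CPM, lies below its lowest WT library, at 17.3 CPM.

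Krt18 (ENSMUSG00000023043, chromosome 15, 101936615 to 101940462, plus strand, exonic length 1437 bp) encodes the type I keratin of simple epithelia. It had 43.4, 35.4 and 43.1 CPM in KO replicates 1 to 3, against 39.8, 43.2 and 36.1 CPM in WT replicates 1 to 3. The groups overlapped, with the lowest value of each in KO replicate 2 and WT replicate 3, and the estimate was close to 0 (0.03 on the log2 scale with an SE of 0.10, edgeR's adjusted p = 0.991). Krt19 (ENSMUSG00000020911, chromosome 11, 100031636 to 100039491, minus strand, 1855 bp), a small type I keratin that lacks most of the usual tail domain, had 69.7, 57.0 and 74.0 CPM in KO and 70.8, 69.1 and 57.5 CPM in WT. Its groups overlapped too, and the same libraries, KO replicate 2 and WT replicate 3, were lowest (log2 change 0.02, SE 0.098, adjusted p = 0.991, edgeR).

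Krt8 (ENSMUSG00000049382, chromosome 15, 101905133 to 101912917, minus strand, 1958 bp), the type II partner of keratin 18, had 13.6, 13.3 and 12.3 CPM in KO and 13.0, 14.6 and 10.1 CPM in WT. The KO libraries lay within the range of the WT ones, with WT replicate 3 the lowest of all 6 (log2 change 0.05, SE 0.15, adjusted p = 0.989, edgeR). Krt7 (ENSMUSG00000023039, chromosome 15, 101308924 to 101328194, plus strand, 7049 bp), a type II keratin of simple and glandular epithelia, had 35.4, 33.8 and 36.3 CPM in KO and 32.0, 34.6 and 34.5 CPM in WT. Its groups overlapped (log2 change 0.06, SE 0.095, adjusted p = 0.979, edgeR). A stretch of 101 bp of Krt8's exons and 77 bp of Krt7's is also annotated to a gene on the opposite strand, each with at most 8 reads in a library, and the counting command had no strand option. Reads of near-identical keratin pseudogenes can also enter or leave such counts.

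The 4 keratins summed to 162, 139 and 166 CPM in KO replicates 1 to 3, against 156, 162 and 138 CPM in WT replicates 1 to 3. Their mean was 156 ± 14.2 CPM in KO and 152 ± 12.1 CPM in WT (n = 3 each, SD), a difference smaller than the spread in either group. Krt8 and Krt18 stand 23.7 kb apart and are transcribed away from each other. Per kb of exon, Krt8 stood at 0.230, 0.275 and 0.210 of the Krt18 level in KO and at 0.240, 0.248 and 0.206 in WT, so that in all 6 libraries the type I partner had the higher count per length. The ratio did not separate the genotypes (log2 difference 0.038, exact permutation p = 0.9, two-sided, where 3 against 3 libraries allow no p below 0.1).

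Upk3b (ENSMUSG00000042985, chromosome 5, 136067350 to 136075341, plus strand, 3530 bp) encodes uroplakin 3b, a membrane protein of the uroplakin family that marks mesothelium. It was the gene with the most reads of the 8, making up 41.5% of their summed CPM in KO and 41.8% in WT. It had 159.7, 177 and 171 CPM in KO and 174, 162 and 168 CPM in WT, and the groups overlapped over nearly their whole range. Its estimate had the narrowest interval of the 8 (log2 change 0.010, SE 0.064, 95% interval -0.12 to 0.14, adjusted p = 0.994, edgeR).

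Msln (ENSMUSG00000063011, chromosome 17, 25967587 to 25973352, minus strand, 3064 bp) encodes mesothelin, a protein anchored on the surface of mesothelial cells. It had 15.9, 20.2 and 15.5 CPM in KO and 17.4, 10.2 and 16.98 CPM in WT. WT replicate 2 stood below the other 5 libraries, and KO replicate 2 above them. The estimate did not pass (log2 change 0.21, SE 0.18, 95% interval -0.16 to 0.59, adjusted p = 0.966, edgeR) and was 0.0039 without WT replicate 2.

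Lhx9 (ENSMUSG00000019230, chromosome 1, 138752924 to 138776315, minus strand, 9494 bp) encodes a LIM homeodomain factor needed for the gonad to form. It had 53.0, 48.7 and 49.1 CPM in KO and 42.5, 50.7 and 49.8 CPM in WT, with WT replicate 1 the lowest and the other 5 libraries close together. The estimate did not pass (log2 change 0.08, SE 0.088, 95% interval -0.11 to 0.26, adjusted p = 0.977, edgeR) and was 0.000721 without WT replicate 1.

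Cdh1 (ENSMUSG00000000303, chromosome 8, 107329983 to 107396878, plus strand, 4574 bp) encodes E-cadherin, which joins epithelial cells. It had 14.3, 16.8 and 16.0 CPM in KO and 21.7, 20.03 and 17.3 CPM in WT. It was the only one of the 8 whose groups did not overlap, all KO libraries being below all WT ones, a pattern that 5.69% of tested genes had in this direction and 5.22% in the other. Its mean was 15.7 ± 1.28 CPM in KO and 19.7 ± 2.24 CPM in WT (n = 3 each, SD), 80.0% of the WT level. It did not pass (log2 change -0.32, SE 0.13, 95% interval -0.59 to -0.051, unadjusted p = 0.0223, adjusted p = 0.737, edgeR), and an unadjusted p under 0.05 with a lower KO level was reached by 3.0% of tested genes, and with a higher KO level by 2.9%. The exact permutation p was 0.1, the smallest that 3 against 3 allows.

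**Figure D2:**
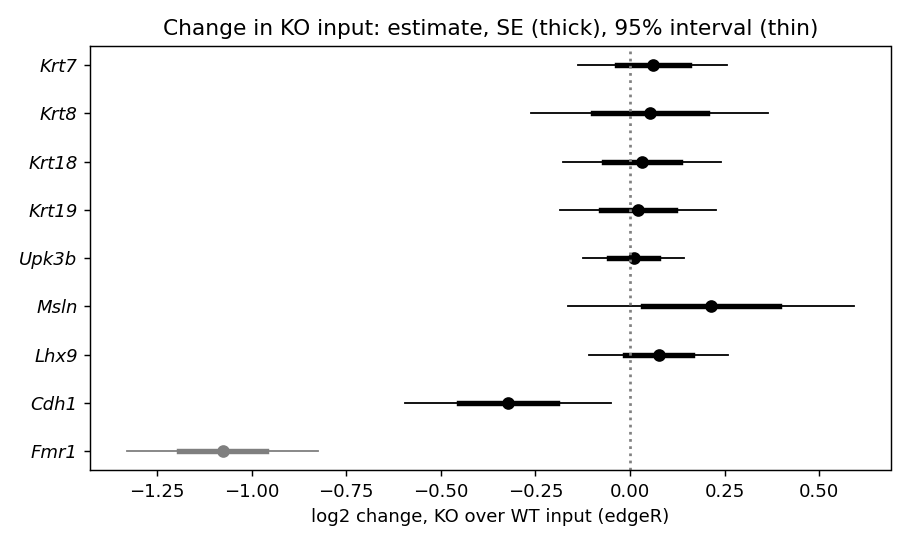
Estimated log2 change of the 8 genes and of Fmr1 in KO over WT input (edgeR), with the SE as a thick line and the 95% interval as a thin line; 0 is dotted. The intervals of 7 genes include 0, that of Cdh1 runs from -0.59 to -0.051 before any adjustment, and Fmr1 lies at -1.08.

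Levels of different genes are compared per kb of exonic length (RPKM from TMM-scaled counts). This length is that of all annotated exons of a gene merged, 7049 bp for Krt7 and 9494 bp for Lhx9, against 1437 bp for Krt18. The order per kb therefore depends on the annotation. By CPM in WT, Krt7 (33.7) and Lhx9 (47.7) stood above Krt8 (12.6), which is not their order per kb. In both genotypes Upk3b stood highest, at 47.9 ± 2.49 in KO and 47.6 ± 1.76 in WT (n = 3 each, SD), above 96.3% of tested genes in WT. Krt19, at 36.1 ± 4.78 in KO and 35.5 ± 3.89 in WT, and Krt18, at 28.3 ± 3.15 in KO and 27.6 ± 2.47 in WT, followed, and the ranges of these 3 genes did not overlap in either genotype. Krt8 came next, at 6.68 ± 0.33 in KO and 6.43 ± 1.16 in WT. Its range overlapped that of Msln in KO and those of Lhx9 and Msln in WT. Below it Lhx9, Msln and Krt7 lay close together, at 5.29, 5.61 and 4.98 in KO and 5.02, 4.85 and 4.78 in WT. Neighbours among these 3 overlapped in both genotypes, so their order was not resolved. Cdh1 stood last, at 3.44 ± 0.28 in KO and 4.30 ± 0.49 in WT; it lay apart from Krt7 in KO and overlapped it in WT. From Upk3b to Cdh1 the level differed 13.9-fold in KO and 11.1-fold in WT.

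**Figure D3:**
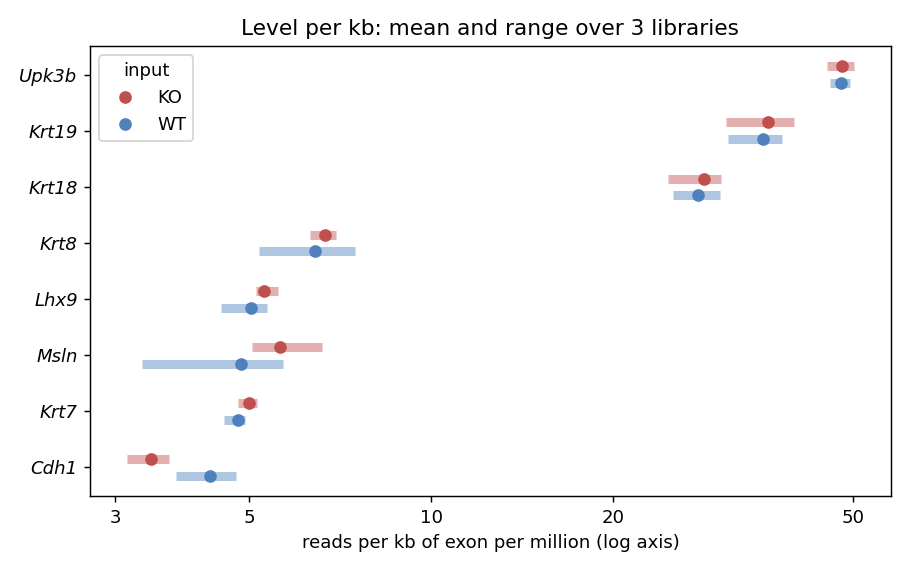
Level per kb of exon (RPKM, log axis) of the 8 genes in input, ordered by the WT mean, with KO above WT; points are means and bars the range over 3 libraries. Upk3b, Krt19 and Krt18 stand apart between 24.7 and 50.1, and the other 5 genes lie between 3.13 and 7.47.

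The genes differed in how much they varied between libraries of one genotype. The coefficient of variation, pooled over both groups, was 4.05% for Krt7, higher than in only 7.11% of the 3572 genes within 1.5-fold of its level. It was 22.1% for Msln, above 96.3% of 3432 such genes, whose median was 10.6%. For Krt19 it was 12.2%, above 94.1% of 2995 such genes with a median of 6.61%. The other genes stood above 35.9% (Upk3b) to 74.6% (Krt18) of genes near their levels. Read counting alone would give 3.71% in KO and 3.59% in WT for Krt7. It would give 5.26% and 5.39% for Msln and 2.70% and 2.56% for Krt19. The 8 genes did not follow one profile over the 6 libraries: Krt18 and Krt19 were lowest in KO replicate 2 of the KO libraries, where Upk3b, Msln and Cdh1 were highest. The mean of their standardized log2 levels was most like that of ENSMUSG00000114066 (chromosome 12, 14980108 to 14980544) and ENSMUSG00000115584 (chromosome 14, 102219427 to 102220199), with Pearson r of 0.993 and 0.991 over 6 libraries, the 2 highest of 19396 genes with a mean of at least 1 CPM. These values are a description over 6 libraries that all genes share. The mean does not stand for each of the 8 genes. A gene's r with the mean of the others ran from -0.68 for Msln to 0.53 for Krt19.

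The second comparison set the RIP libraries of the 2 genotypes against each other. In the KO libraries the gene of the antibody's target is knocked out. A high ratio alone, or a mean over both genotypes, is therefore no measure of binding by FMRP. The values are fold enrichments that the authors computed, with 1 value per library for each row; the sources used here give neither the denominator of the ratio nor the place of a row on its transcript. The first principal component of all rows held 48.8% of the variance and did not follow genotype, with scores of -25.0, 31.9 and 13.3 in KO replicates 1 to 3, against 29.1, -24.7 and -24.7 in the WT replicates. KO replicates 2 and 3 and WT replicate 1 therefore stood apart from the other 3 libraries, and the values below are also given within each of these 2 sides. The Fmr1 row had ratios of 0.422 ± 0.029 in KO, against 1.39 ± 0.045 in WT (n = 3 each, SD). Its mean over the 6 libraries was under 1, the minimum set for a row, so it was not among the rows tested below. With no filter on low values it was the 1 row called.

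No row of the 6 genes passed the test between genotypes, nor did any other of the 14365 rows tested (0.0% called, limma on log2 of the ratio + 1 with Benjamini-Hochberg adjustment; 413 rows higher and 859 lower in KO at an unadjusted p under 0.05). Of the 14 rows, 6 had every KO library above every WT library, where 6.77% of all tested rows did, and none was the other way round, where 8.39% of all were. These shares and those that follow were not matched for ratio level, and 13 of the 14 rows lay above the median of all rows by mean. These 6 rows belonged to Krt8 (1 row), Krt18 (2), Krt19 (2) and Upk3b (1), and rows of 1 gene share their RNA. At an unadjusted p under 0.05, 4 of the 14 rows were higher in KO, where 2.88% of all were, and 0 were lower, where 5.98% of all were. The median log2 difference, KO over WT, was 0.11 over the 14 rows and 0.0021 over all tested rows; 12 of the 14 estimates and 50.5% of all estimates were above 0.

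**Figure D4:**
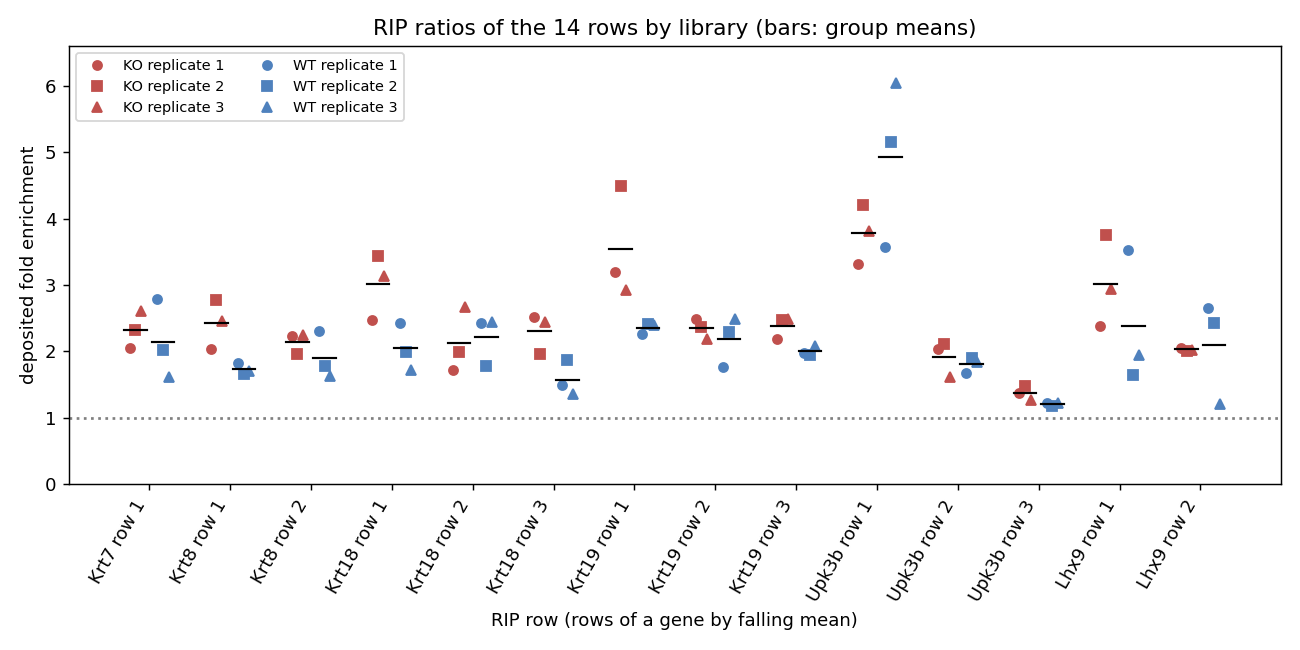
Deposited fold enrichment (axis from 0, with 1 dotted) of the 14 RIP rows in each KO library (red, left) and WT library (blue, right); lines are group means, and rows of a gene run by falling mean. In Krt8 row 1, Krt18 rows 1 and 3, Krt19 rows 1 and 3 and Upk3b row 3 all KO points lie above all WT points.

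Among the keratins, Krt19's row with the highest mean had ratios of 3.20, 4.49 and 2.93 in KO and 2.27, 2.41 and 2.40 in WT. Its groups did not overlap, and KO replicate 2 was the highest library (1.5-fold in KO over WT, log2 difference 0.42, SE 0.16, unadjusted p = 0.0372, adjusted p = 0.528, limma). Krt19's row with the lowest mean, at 2.39 ± 0.17 in KO and 2.01 ± 0.070 in WT (n = 3 each, SD), did not overlap either (adjusted p = 0.689, limma). The remaining Krt19 row, at 2.35 ± 0.15 in KO and 2.18 ± 0.37 in WT, overlapped.

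For Krt18, the row with the highest mean had 2.48, 3.43 and 3.13 in KO and 2.43, 1.99 and 1.72 in WT. KO replicate 1 lay just above WT replicate 1, and the others were well apart (1.47-fold, log2 difference 0.40, SE 0.15, unadjusted p = 0.0287, adjusted p = 0.506, limma). The Krt18 row with the lowest mean had 2.51, 1.97 and 2.44 in KO and 1.499, 1.87 and 1.36 in WT, again without overlap (1.46-fold, log2 difference 0.36, SE 0.12, unadjusted p = 0.0199, adjusted p = 0.490, limma). The Krt18 row between them, at 2.12 ± 0.49 in KO and 2.22 ± 0.38 in WT, overlapped, with an estimate close to 0 (log2 difference -0.05, SE 0.15, limma); differences between rows of a gene were not tested.

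For Krt8, the row with the higher mean had 2.04, 2.78 and 2.46 in KO and 1.83, 1.66 and 1.71 in WT. The KO values did not overlap the WT ones, which lay close together (1.40-fold, log2 difference 0.32, SE 0.11, unadjusted p = 0.0221, adjusted p = 0.490, limma). The other Krt8 row, at 2.15 ± 0.17 in KO and 1.90 ± 0.36 in WT, overlapped; its 6 values are also listed for ENSMUSG00000116010, the gene on the opposite strand that overlaps Krt8, so it cannot be given to Krt8 alone. Krt7 had 1 row, with 2.04, 2.33 and 2.60 in KO and 2.79, 2.02 and 1.62 in WT, which overlapped (adjusted p = 0.895, limma). The input levels of the same 4 keratins in KO were 101.7% to 104.3% of those in WT.

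Upk3b had the highest row of the 14, with 3.31, 4.204 and 3.82 in KO and 3.58, 5.16 and 6.04 in WT. It lay above 92.1% of all rows by its mean and was lower in KO by its estimate, with groups that overlapped through WT replicate 1 (0.767-fold, log2 difference -0.29, SE 0.24, adjusted p = 0.772, limma; -0.48 without WT replicate 1 and -0.15 without WT replicate 3). Its row with the lowest mean had 1.38, 1.47 and 1.27 in KO and 1.23, 1.18 and 1.22 in WT, without overlap and higher in KO (1.13-fold, adjusted p = 0.721, limma). The third, at 1.92 ± 0.27 in KO and 1.81 ± 0.12 in WT, overlapped.

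Lhx9 had 2 rows. The first had 2.38, 3.75 and 2.93 in KO and 3.53, 1.65 and 1.95 in WT, and its 3 highest values were those of KO replicates 2 and 3 and WT replicate 1, the libraries that stood apart over the whole table. The second had 2.06, 2.00 and 2.03 in KO and 2.66, 2.42 and 1.21 in WT, so that the KO libraries lay close together inside the WT range. Neither passed (adjusted p = 0.774 and 0.998, limma).

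The 6 rows without overlap kept the KO libraries higher on both sides of the first component. KO replicates 2 and 3 lay above WT replicate 1 by 1.12-fold to 1.63-fold, and KO replicate 1 above WT replicates 2 and 3 by 1.09-fold to 1.55-fold (ratios of means), which the lack of overlap already implies. Of all 14 rows, 8 were higher in both KO libraries on the first side, against 31.4% of all tested rows, and 11 were higher in the KO library on the second side, against 34.4% of all. On the first side 3 rows were lower in KO, those of Krt7, Krt8 (the row shared with the overlapping gene) and Lhx9 (its second row). Upk3b's highest row was 1.12-fold higher in KO on the first side and 0.591-fold on the second.

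**Figure D5:**
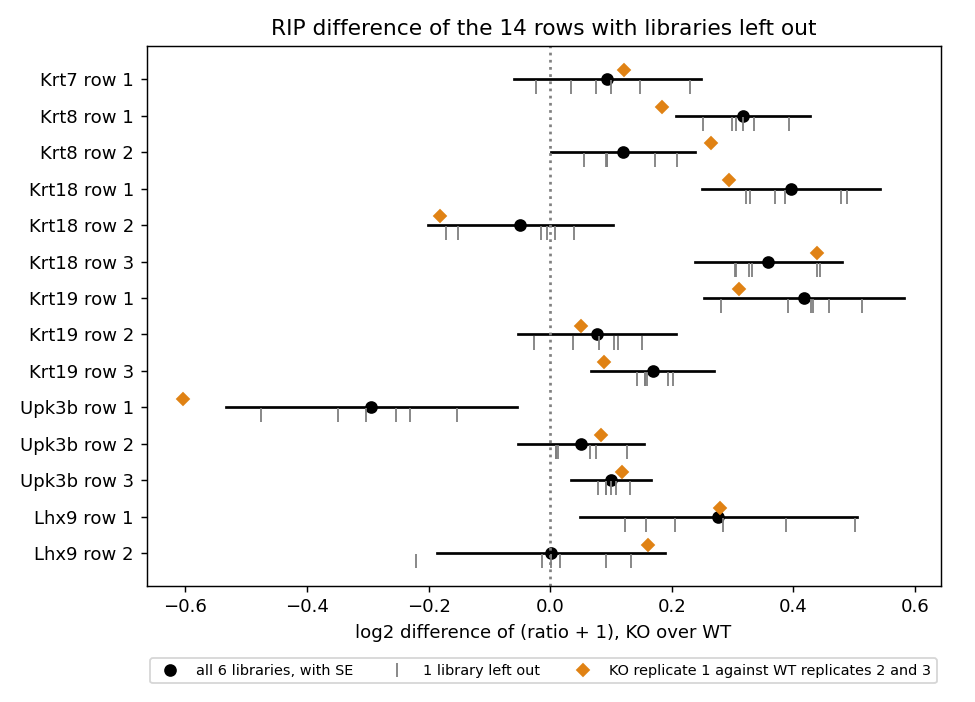
Log2 difference of (ratio + 1), KO over WT, of the 14 RIP rows: all 6 libraries with SE (black), each library left out in turn (grey ticks) and KO replicate 1 against WT replicates 2 and 3 alone (orange). The 6 rows without overlap lie above 0 throughout, and Upk3b row 1 lies below 0 throughout. For the 6 rows, lack of overlap in the ratios favours a positive sign but does not fix it, as columns were centred.

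By the mean over all 6 libraries, 13 of the 14 rows lay above the median of all rows. Their means ran from 1.29 to 4.35 with a median of 2.18, beside 1.77 for all rows. These means include the KO libraries, and 12 of the 14 estimates were higher in KO. Krt18, Krt19 and Upk3b had 3 rows each, and 20.2% of the 7525 genes in the table had 3 or more. That share was not matched for level. By WT input level per kb, Krt18, Krt19 and Upk3b stood above 93.0%, 94.6% and 96.3% of tested genes. Msln and Cdh1 had no row. Of all tested genes, 29.6% had a row. Of genes within 1.5-fold of the input level of Msln, 34.7% had a row, and of those within 1.5-fold of Cdh1, 37.1% did. Krt8, with a lower CPM than either in both genotypes, had 2, of which 1 is shared with the overlapping gene. Why a gene had a row or none was not tested.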

How the data were processed

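Input counts per gene were deposited without normalization; per the file headers featureCounts 1.6.3 assigned reads to exons of each gene of Ensembl release 104, without a strand option. The RIP table gives the authors' fold enrichment, a linear ratio, with 1 deposited column per RIP library. BWA 0.7.12, MACS2 2.1.0, FastQC, DESeq2 1.26.0 and the build GRCm38 are named in the submitters' processing notes without a role; gene coordinates here are those of the count files, whose annotation belongs to a later build, and none was converted.

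Input counts were tested with edgeR 4.0.16 in R 4.3.3 (TMM, filterByExpr, robust quasi-likelihood fit, KO over WT), adjusted over 23698 genes. SEs are the log2 change over the root of F. RIP ratios were tested with limma 3.58.1 (eBayes with trend) on log2(ratio + 1), with median-centred columns, for rows whose mean was 1 or more; this scale understates changes of low ratios. Both steps were tested on simulated data.

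The 8 genes, Fmr1 and the 2 genes most alike in profile were the genes to be named; they and all lists were chosen with earlier results of these data known. The tables used here pair no other gene symbols with Ensembl identifiers, so marker lists of other cell types were not analysed here, and the tissue label was not checked with them. Intervals cover the spread between libraries in the fit; no read depth stands behind the ratios. Replicates of a genotype differed by more than sampling noise (chi-square over its degrees of freedom 7.03 to 12.1). Alternatives were filters, normalizations, DESeq2 1.42.0, limma-voom, pseudocounts, a replicate block and each library left out.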

Additional observations from a re-analysis of the deposited data

How the results depend on the processing

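No member passed in input and no member row passed in RIP under any alternative run. The 10 input genes called became 113 with no filter on low counts, 37 with DESeq2, 5 to 37 with 1 library left out (37 without KO replicate 1, 5 without KO replicate 2, 28 without WT replicate 2) and 20 with the replicate block; the cause was not tested. The count of RIP rows, 0, was 1 with no filter on low values, and it was Fmr1's. Deviations of like-numbered replicates were not positively correlated (-0.071, -0.034 and -0.044 in input and -0.601, -0.336 and -0.218 in RIP). With 3 libraries a group this cannot settle whether libraries were paired. The replicate block changed no member's call. Input estimates of 4 genes, all close to 0, changed sign when 1 library was left out: -0.079 to 0.17 for Krt8, -0.033 to 0.12 for Krt18, -0.066 to 0.13 for Krt19 and -0.023 to 0.050 for Upk3b. The Krt8 to Krt18 ratio had a log2 difference of -0.070 to 0.12 in the same way. Cdh1 stayed between -0.41 and -0.24. RIP differences that changed sign with 1 library left out were those of Krt7 (-0.023 to 0.23), the second rows of Krt18 (-0.17 to 0.038) and Krt19 (-0.027 to 0.15), and the second row of Lhx9 (-0.22 to 0.13), which was also -0.0062 with a pseudocount of 10 and -0.0017 with quantile normalization. The fit of KO replicate 1 against WT replicates 2 and 3 was chosen after seeing the data; it changed no direction among the 14 rows (-0.18 for the second row of Krt18 and 0.16 for that of Lhx9), and its lone KO library is assumed to vary like the WT libraries. With 3 libraries a group, the SEs and intervals given above limit what change of a gene or row could pass.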
